A study of Mus musculus with 17 samples.

Results

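Muscarinic and nicotinic acetylcholine receptors are the proteins through which gut cells respond to acetylcholine, and 10 of their genes were followed in mouse colon: Chrm1, Chrm2, Chrm3, Chrna1, Chrna3, Chrna7, Chrnb1, Chrnb2, Chrnb4 and Chrne. They were chosen by name, as the rows of the count table with these gene symbols, and make up 10 of its 23719 rows. All 10 were found, and 9 were among the 14146 that passed edgeR's filter on low counts.

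RNA was measured by sequencing in colons of male C57BL/6 mice aged 32 to 34 weeks. The 9 control mice drank water. The 8 GWI (Gulf War illness) mice were exposed to pyridostigmine bromide (PB), which slows the breakdown of acetylcholine by inhibiting acetylcholinesterase, at 2 mg/kg in their water for 7 days, and tissue was collected at day 30, after 21 days of recovery. The comparison asked whether receptor transcripts differed in the colon after the exposure had ended. The count table sums to 16744096 to 20741212 counts in a control mouse and 16293537 to 18389686 in a GWI mouse.

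Muscarinic receptors are single proteins coupled to G proteins. In the gut, M2 and M3, encoded by Chrm2 and Chrm3, sit on smooth muscle and drive its contraction, M3 through Gq and calcium release and M2 through Gi. Nicotinic receptors are rings of subunits around an ion channel, and in enteric ganglia the subunits encoded by Chrna3 and Chrnb4 carry most fast transmission between neurons, while Chrna1, Chrnb1, Chrnd and Chrne or Chrng encode the receptor of the skeletal neuromuscular junction.

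Of the 9 receptor genes tested, 1 differed between the groups, Chrnb1, which was lower in GWI colons. Among all 14146 genes, 26.8% were called at an adjusted p under 0.05, with 13.5% lower and 13.4% higher in GWI colons, so 1 of 9 is not more than the table as a whole gives. The median log2 fold change of the 9 was -0.22, with 3 positive and 6 negative, against -0.056 over all tested genes. Fold changes are GWI against control on the log2 scale from edgeR's quasi-likelihood test, p-values carry a Benjamini-Hochberg adjustment across the tested genes, and levels are CPM, counts scaled to a common library size with TMM factors.

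**Figure D1:**
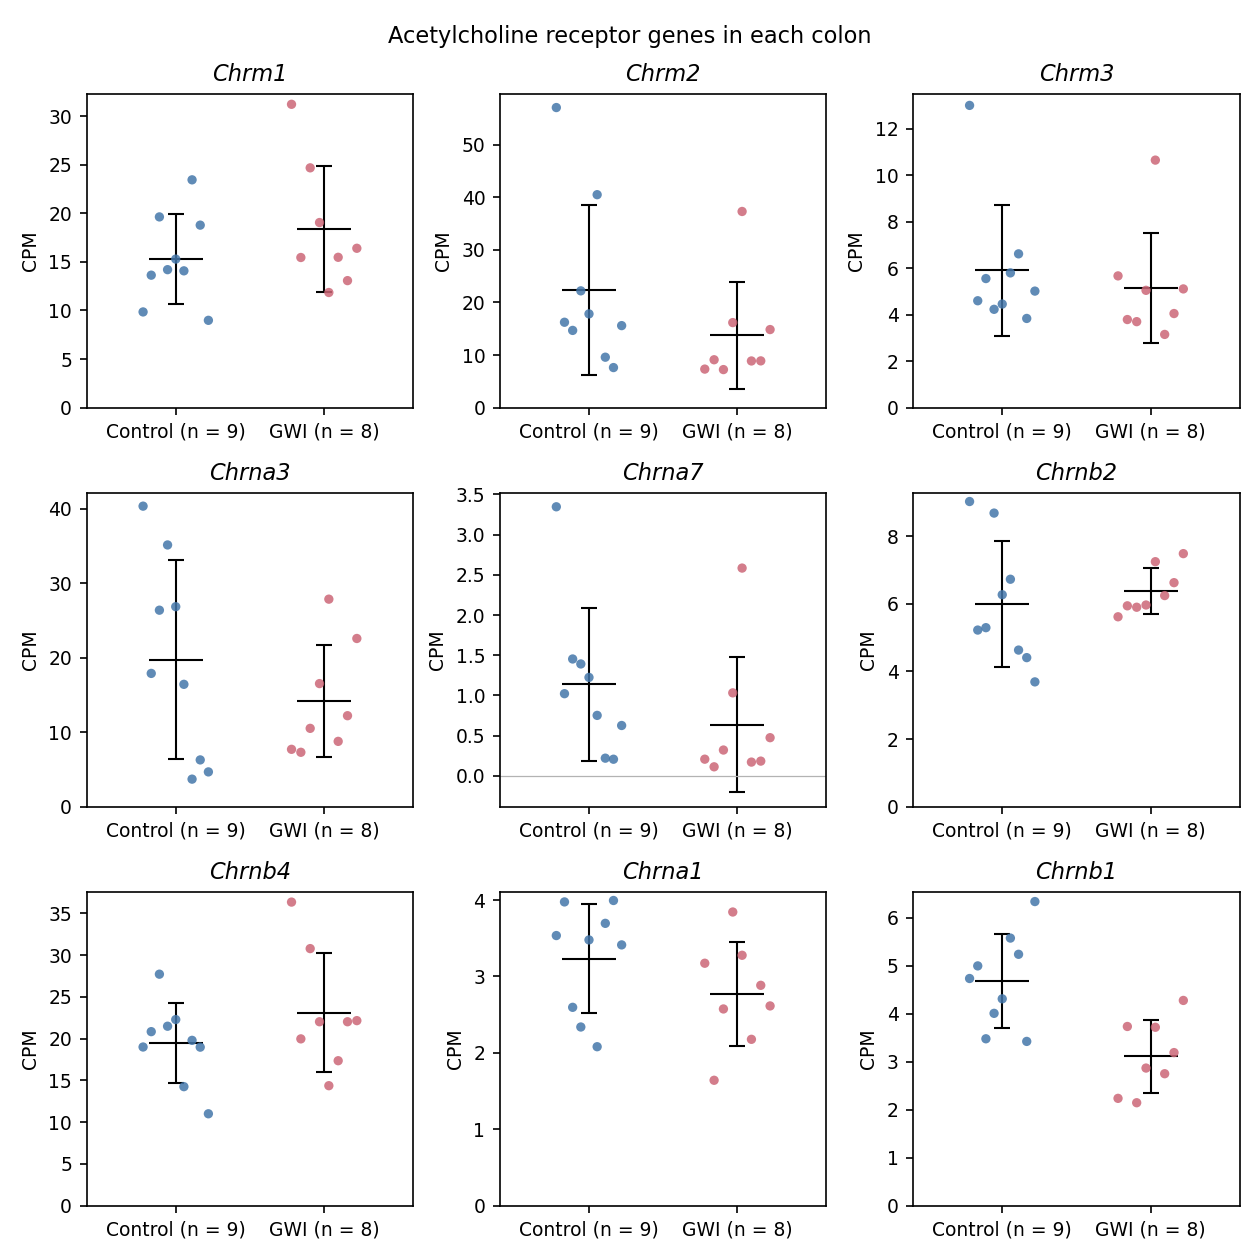
CPM (vertical axes, linear) of the 9 tested receptor genes in each of 9 control and 8 GWI colons (1 point each), with the mean as a bar and the SD as whiskers. The groups overlap in every panel, and for Chrnb1 5 of the 8 GWI colons lie below all controls.

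Whole colon holds muscle, neurons and epithelium, and marker genes of these tissues were read first. Of 10 smooth muscle genes 7 fell and all were negative, and their median was -0.91 on the log2 scale. Those that fell included Tagln (-1.17), Mylk (-0.91) and Synpo2 (-1.06). Their summed level ran from 3687 to 23906 CPM in control colons, with a median of 11576, and from 3656 to 11823 CPM in GWI colons, with a median of 5138, and Myh11, the smooth muscle myosin heavy chain, was the most abundant. Control replicates 7, 8 and 9 were the lowest controls, at 6786, 4698 and 3687 CPM, of which 7 and 8 share a prefix in their sample names (6A and 6C), and GWI replicate 5 was the highest of its group.

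The 10 enteric neuron genes were all negative, with a median of -0.58 and none called, and Uchl1 was the most abundant. Their sum was 78.4 to 569 CPM in control colons, with a median of 259.7, and 105 to 377 CPM in GWI colons, with a median of 185. Here too Control replicates 7, 8 and 9 were low, at 78.4, 112 and 101 CPM, and Control replicate 1 and GWI replicate 5 were the highest of their groups. In bulk tissue, fewer cells of a type and less RNA per cell cannot be told apart, and this holds for every receptor below.

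Of 10 colon epithelium genes 5 were higher in GWI colons, led by Cdh1 (0.62), Cdx2 (0.38) and Vil1 (0.64). In direction 8 were positive and 2 negative, Slc26a3 (-0.061) and Car1 (-0.061), and the median was 0.45. The summed level was 24785 to 42020 CPM in control and 29357 to 47452 CPM in GWI colons, and Car1 was the most abundant. All 10 were detected in every colon. Genes of interstitial cells of Cajal (3 tested, median -0.41), leukocytes (5 tested, median -0.35) and tuft cells (5 tested, median 0.18) held no call.

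Chrm2 encodes the M2 receptor and lies on chromosome 6 (36388084 to 36528414, GRCm38), where a noncoding gene on the other strand, 9330158H04Rik, overlaps 2.35% of its exonic length. Control colons ran from 7.62 to 57.1 CPM with a median of 16.2, and GWI colons from 7.24 to 37.3 CPM with a median of 9.00. Of the GWI colons 7 of 8 were below the control median, and 2 were below all controls. Control replicates 1 and 6 were above all GWI colons, Control replicates 7 and 8 lay among the low GWI colons, and GWI replicate 5 was above 7 of the 9 controls. The mean was 22.4 ± 16.1 CPM (SD, n = 9) in control and 13.7 ± 10.1 CPM (SD, n = 8) in GWI colons. The log2 fold change of -0.71 (standard error 0.41, 95% interval -1.58 to 0.16) did not pass the test (adjusted p = 0.198, edgeR).

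The level of Chrm2 followed that of the smooth muscle genes over the 17 mice (r = 0.852, permutation p = 2e-05, rho = 0.841, permutation p = 5e-05, adjusted p = 0.00027 and 0.000675 over 27 pairs of a receptor gene and a marker list). Without the 2 mice farthest from the median muscle level r was 0.751, and within the groups it was 0.806 in control (exact permutation p = 0.00931) and 0.914 in GWI colons (exact permutation p = 0.00397). With the muscle level as a covariate, the log2 fold change of Chrm2 was 0.13 (adjusted p = 0.726). Chrm2 also followed the enteric neuron genes, less closely (r = 0.685, permutation p = 0.00212, rho = 0.659, permutation p = 0.00535, adjusted p = 0.00818 and 0.0206, and r = 0.601 without the 2 farthest mice). The part of muscle content in the Chrm2 difference was not tested beyond this fit. Without GWI replicate 5, Chrm2 passed the test at -1.11 (adjusted p = 0.0339), and limma-voom with quality weights also called it (-0.80, adjusted p = 0.0149), whereas without Control replicate 1 it was -0.40 (adjusted p = 0.413).

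Chrm3 encodes the M3 receptor, the main contractile muscarinic receptor of gut muscle, and lies on chromosome 13 (9875486 to 10360847). It had 3.84 to 13.004 CPM in control colons, with a median of 5.01, and 3.15 to 10.7 CPM in GWI colons, with a median of 4.55. Control replicate 1 and GWI replicate 5 stood above all others, 3 GWI colons lay below all controls, and the remaining colons overlapped. The log2 fold change was -0.20 (standard error 0.27, 95% interval -0.76 to 0.37, adjusted p = 0.594, edgeR) and turned to 0.042 without Control replicate 1. Its correlation with the muscle genes was 0.560 (permutation p = 0.0168, rho = 0.571, permutation p = 0.0178), which adjustment over the 27 pairs left at 0.051 and 0.060.

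Per kilobase of exon, Chrm2 had 3.02 ± 2.30 CPM (SD, n = 17) and Chrm3 0.887 ± 0.409 CPM (SD, n = 17). The log2 ratio of Chrm2 to Chrm3 CPM, which needs no library scaling, ran from 0.53 to 2.78 in control and from 0.37 to 1.80 in GWI colons, with 7 of 8 GWI colons below the control median. Its means were 1.73 ± 0.70 (SD, n = 9) and 1.26 ± 0.46 (SD, n = 8), a difference of -0.46 that the spread between mice covered (exact permutation test over 24310 splits, two-sided, p = 0.131). Without Control replicate 7 the difference was -0.61 (exact permutation p = 0.0315).

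Chrm1 encodes M1, a Gq-coupled receptor known from neurons and secretory epithelium, and lies on chromosome 19 (8663789 to 8683587). It had 8.98 to 23.4 CPM in control colons, with a median of 14.2, and 11.8 to 31.2 CPM in GWI colons, with a median of 15.9. GWI replicates 1 and 3 were above every control, and Control replicates 1 and 9 were below every GWI colon, with the rest intermixed. The log2 fold change was 0.26 (standard error 0.21, 95% interval -0.18 to 0.71, adjusted p = 0.349, edgeR). Over all 17 mice it followed none of the marker lists of muscle, neurons and epithelium. There r was between -0.359 and -0.215, with an adjusted p of 0.304 or more for each. With the epithelium genes r was -0.465 within control (exact permutation p = 0.209) and -0.691 within GWI colons (exact permutation p = 0.0570). With the muscle genes r was -0.113 within control (exact permutation p = 0.768) and -0.532 within GWI colons (exact permutation p = 0.163). A small RNA gene on the other strand, Gm22820, overlaps 5.07% of the exonic length of Chrm1, and reads of the 2 strands can be told apart only if the counting used strand, which the methods do not state.

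Chrna3 encodes the α3 subunit of the ganglionic nicotinic receptor and lies on chromosome 9 (55010111 to 55026562). It ran from 3.69 to 40.3 CPM in control colons, with a median of 17.9, and from 7.30 to 27.9 CPM in GWI colons, with a median of 11.4. Control replicates 7, 8 and 9 were below every GWI colon while the other controls had 16.4 CPM or more, so the controls alone spanned the whole range. The log2 fold change was -0.48 (standard error 0.44, 95% interval -1.41 to 0.46, adjusted p = 0.420, edgeR).

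Across mice, Chrna3 followed the enteric neuron genes almost exactly (r = 0.987, rho = 0.983, permutation p = 1e-05 for both, the smallest that 100000 resamples can give, adjusted p = 0.00027 for both). The value was 0.983 without the 2 mice farthest from the median neuron level, 0.995 within control (exact permutation p = 2.76e-06) and 0.971 within GWI colons (exact permutation p = 9.92e-05). Its relation with the muscle genes was looser (r = 0.731, permutation p = 0.00121, rho = 0.708, permutation p = 0.00206, adjusted p = 0.00544 and 0.0126, and r = 0.762 without the 2 farthest mice). With the neuron level as a covariate the log2 fold change was 0.15 (adjusted p = 0.176), and with the muscle level 0.70 (adjusted p = 0.116). The part of neuron content in the Chrna3 difference was not tested beyond these fits. Limma-voom with quality weights called Chrna3 lower (-0.94, adjusted p = 0.0228), and without Control replicate 1 edgeR gave -0.28 (adjusted p = 0.639).

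Chrnb4, the β4 partner of α3, is the next gene on chromosome 9 (55028154 to 55048779), on the same strand. Control colons had 11.005 to 27.7 CPM, with a median of 19.8, and GWI colons 14.4 to 36.4 CPM, with a median of 22.03. Of the controls low in Chrna3, replicates 7 and 8 were mid-range here at 19.8 and 19.0 CPM and replicate 9 was the lowest of all colons, and the 2 GWI colons above all controls, replicates 1 and 3, were those that led in Chrm1. Its difference was 0.25 in log2 fold change (standard error 0.18, 95% interval -0.14 to 0.64, adjusted p = 0.314, edgeR). Its correlation with the neuron genes was 0.156 (permutation p = 0.553, rho = 0.257, permutation p = 0.316, adjusted p = 0.746 and 0.503), with 0.531 within control (exact permutation p = 0.142) and -0.348 within GWI colons (exact permutation p = 0.401).

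The log2 ratio of Chrna3 to Chrnb4 was -0.36 ± 1.14 (SD, n = 9) in control and -0.81 ± 0.99 (SD, n = 8) in GWI colons, a difference of -0.45 (exact permutation test, two-sided, p = 0.395), which ran from -0.25 without GWI replicate 1 to -0.70 without Control replicate 7 and was -0.84 between the medians. It ran from -2.39 to 1.08 among controls and from -2.22 to 0.95 among GWI colons, so the balance of these subunit genes varied more between mice of one group than between the groups. Chrna5, which encodes an accessory subunit and lies beside Chrna3 (54980880 to 55007779), had 7 to 51 counts per mouse, with 0.016 as its fold change on the log2 scale (standard error 0.36, adjusted p = 0.978).

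**Figure D2:**
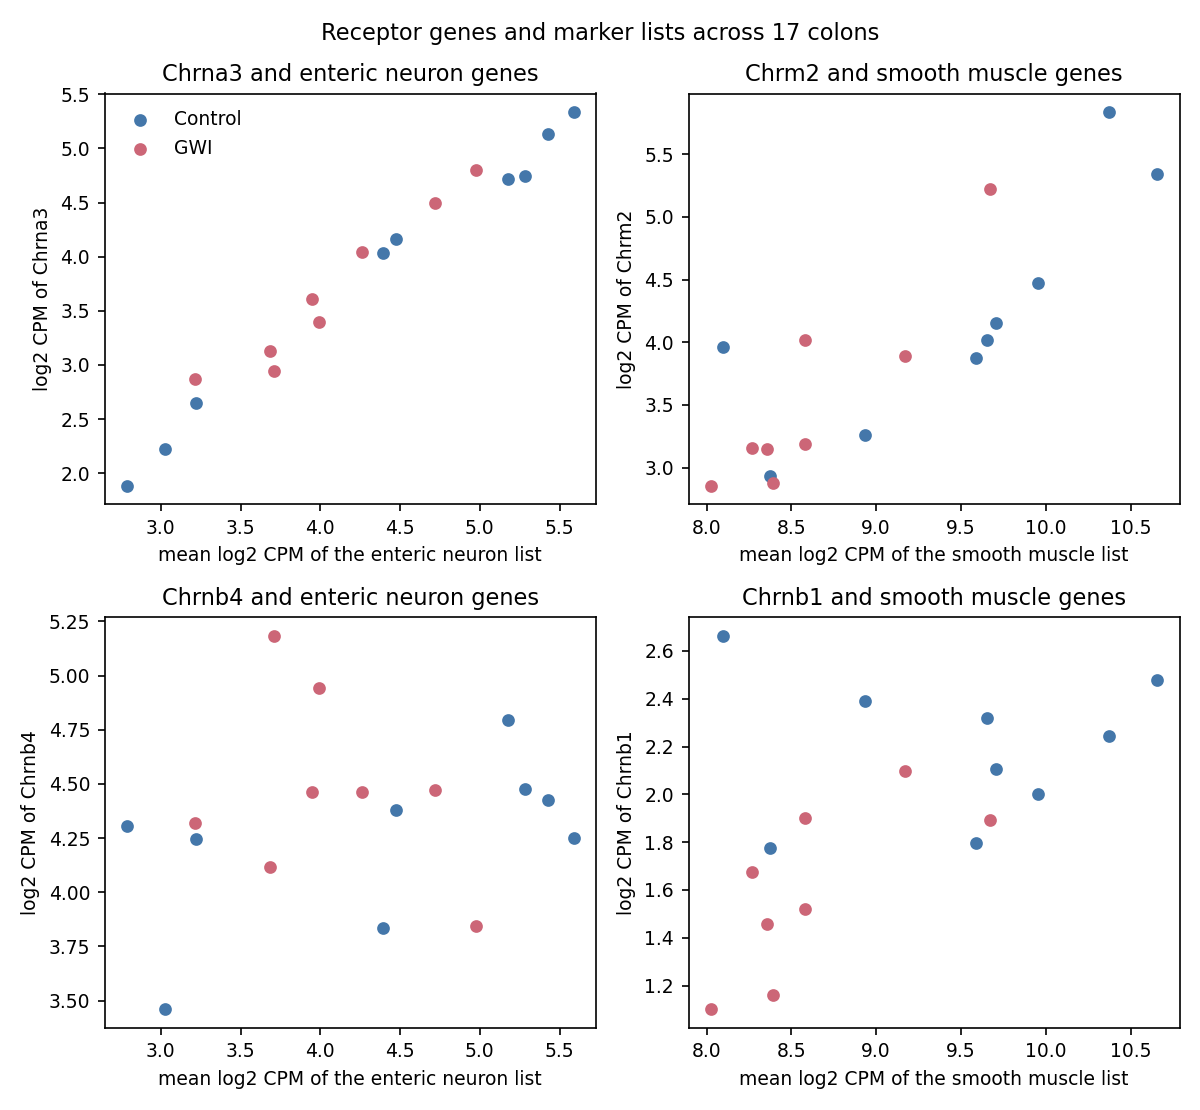
Log2 CPM of 4 receptor genes (vertical axes) against the mean log2 CPM of a marker list (horizontal axes) in 17 colons, 1 point each, coloured by group. Chrna3 rises with the neuron genes (r = 0.987) and Chrm2 with the muscle genes (r = 0.852), Chrnb4 has r = 0.156 with the neuron genes (0.531 within control and -0.348 within GWI colons), and Chrnb1 is lower in GWI colons on average in the fit with the muscle level (-0.52 on the log2 scale), with single colons of the groups overlapping at like muscle levels.

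Chrna7, on chromosome 7 (63098692 to 63212569), encodes the α7 subunit, which forms receptors of its own on neurons and macrophages. It was the scarcest of the tested receptor genes, with 4 to 53 counts in control and 2 to 41 counts in GWI mice. Levels were 0.207 to 3.35 CPM in control colons, with a median of 1.02, and 0.113 to 2.58 CPM in GWI colons, with a median of 0.265. Control replicate 1 and GWI replicate 5 were again the highest, 3 GWI colons lay below all controls, and the groups otherwise overlapped.

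Its log2 fold change was -0.85 (standard error 0.61, 95% interval -2.15 to 0.46, adjusted p = 0.303, edgeR). It was called without GWI replicate 5 (-1.64, adjusted p = 0.0373) and by limma-voom with quality weights (-1.63, adjusted p = 0.00538), and was 0.28 with the muscle level (adjusted p = 0.698) and -0.30 with the neuron level as a covariate (adjusted p = 0.567). Chrna7 followed the neuron genes (r = 0.824, permutation p = 7e-05, rho = 0.819, permutation p = 0.00012, adjusted p = 0.00063 and 0.00108) and the muscle genes (r = 0.737, permutation p = 0.00115, rho = 0.686, permutation p = 0.00281, adjusted p = 0.00544 and 0.0126). Without the 2 farthest mice, r was 0.782 and 0.757.

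Chrnb2 encodes β2, a subunit of neuronal receptors, on chromosome 3 (89746195 to 89764632). It had 3.69 to 9.03 CPM in control colons, with a median of 5.30, and 5.62 to 7.49 CPM in GWI colons, with a median of 6.11. All 8 GWI colons were above the control median, in a narrow band that 5 controls lay under and 2 exceeded. Its log2 fold change was 0.088 (standard error 0.17, 95% interval -0.27 to 0.45, adjusted p = 0.711, edgeR), was -0.013 by limma-voom, ran from 0.031 without Control replicate 9 to 0.19 without Control replicate 1, and passed the test at 0.46 with the muscle level as a covariate (adjusted p = 0.0135).

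Chrnb2 followed the neuron genes (r = 0.745, permutation p = 0.0005, rho = 0.694, permutation p = 0.0027, adjusted p = 0.00337 and 0.0126, and r = 0.653 without the 2 farthest mice). Its correlation with the muscle genes was 0.569 (permutation p = 0.0170, rho = 0.564, permutation p = 0.0205), with adjusted p of 0.051 and 0.062. Within control it was 0.861 (exact permutation p = 0.00349) and within GWI colons 0.760 (exact permutation p = 0.0298). Exons of Adar on the opposite strand overlap 16.3% of its exonic length, and without strand, reads from the shared stretch could not be told apart by gene.

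Chrnb1, the β1 subunit of the muscle-type receptor, lies on chromosome 11 (69784036 to 69795943). Control colons ran from 3.42 to 6.34 CPM with a median of 4.73, and GWI colons from 2.15 to 4.28 CPM with a median of 3.03. Each of the 8 GWI colons was below the control median and 5 of them were below all controls, while 6 of the 9 controls were above all GWI colons, and the overlap came from Control replicates 3, 4 and 8 and GWI replicates 2, 5 and 8. The counts behind these levels were 66 to 126 in control and 40 to 72 in GWI mice.

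The means were 4.68 ± 0.97 CPM (SD, n = 9) and 3.12 ± 0.76 CPM (SD, n = 8). On the log2 scale the difference was -0.59 (standard error 0.17, 95% interval -0.95 to -0.22, adjusted p = 0.0184, edgeR). This is a level of 0.666 of control, with an interval of 0.518 to 0.857. Leaving out any of the 17 mice kept the call, with adjusted p from 0.0111 to 0.0403, as did 9 of 10 other fits, all but the one with the replicate number as a block. The highest Chrnb1 level was that of Control replicate 9, whose library had a TMM factor of 0.799 against 0.941 to 1.11 in the other controls, and without it the log2 fold change was -0.52 (adjusted p = 0.0250). With the muscle level as a covariate the log2 fold change was -0.52 (adjusted p = 0.0349). Its correlation with the muscle genes was 0.524 over all mice (permutation p = 0.0316, rho = 0.537, permutation p = 0.0299, adjusted p = 0.0852 and 0.0806), -0.024 within control (exact permutation p = 0.950) and 0.732 within GWI colons (exact permutation p = 0.0348).

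Chrna1, the α1 subunit that binds acetylcholine in the muscle-type receptor, lies on chromosome 2 (73563215 to 73580338). It had 2.08 to 3.99 CPM in control colons, with a median of 3.48, and 1.64 to 3.84 CPM in GWI colons, with a median of 2.75. Of the GWI colons 7 of 8 were below the control median, but only GWI replicate 2 lay below all controls. Its difference of -0.22 in log2 fold change did not pass the test (standard error 0.18, 95% interval -0.61 to 0.17, adjusted p = 0.371, edgeR).

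The other muscle-type subunits had too few counts to compare. Chrne, the ε subunit of the adult muscle receptor on chromosome 11 (70614883 to 70619216), had 4 counts in all, 1 each in 3 control mice and 1 GWI mouse. Chrng, the fetal γ subunit, had 9 counts in all, and Chrnd, the δ subunit, had 0 in each of the 17 mice. A count of 0 allows up to 3 counts in a library, which was 0.133 to 0.209 CPM here, by counting error only. Of 12 skeletal muscle genes, 5 passed the filter, their median was -0.091 on the log2 scale, and 1 was called, Ckm (-1.06), the muscle creatine kinase and the most abundant of them. Their summed level was 18.2 to 83.4 CPM in control colons, with a median of 63.6, and 20.3 to 60.5 CPM in GWI colons, with a median of 32.6, and their part in the Chrnb1 difference was not tested.

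Of the 11 receptor genes outside the chosen 10, Chrm4 and Chrna5 passed the filter, and Chrm4, the Gi-coupled M4 receptor, was at -0.31 on the log2 scale (standard error 0.43, adjusted p = 0.599). Chrna6, an α subunit of neurons, did not pass. It had 5 to 24 counts in control mice, with a median of 14, and 2 to 22 counts in GWI mice, with a median of 3. GWI replicate 8, with 22 counts, was the exception among GWI colons, of which 5 were below all controls, and a fit without the filter gave -1.14 (standard error 0.46, adjusted p = 0.0954). Its neighbour on chromosome 8, Chrnb3, had 1 to 20 counts in control mice and 0 to 9 in GWI mice. Chrm5, Chrna2, Chrna4, Chrna9 and Chrna10 had at most 10 counts in any mouse.

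Levels were ordered by CPM per kilobase of exon over the 17 mice. Chrnb4 was first at 5.69 ± 1.64 (SD), before Chrna3 at 3.25 ± 2.11, Chrm2 at 3.02 ± 2.30, Chrm1 at 2.58 ± 0.87 and Chrnb1 at 1.56 ± 0.46. Lower came Chrm3 at 0.887 ± 0.409, Chrnb2 at 0.737 ± 0.168, Chrna1 at 0.688 ± 0.164 and Chrna7 at 0.200 ± 0.202, with Chrne last of the chosen genes at 0.0073 ± 0.0137. Among all 21 receptor genes Chrm4, at 1.36 ± 0.85, stood between Chrnb1 and Chrm3, and Chrna5, at 0.378 ± 0.202, between Chrna1 and Chrna7, and with these included no neighbours were separated beyond their SDs. Of the chosen genes alone, Chrna1 and Chrna7 were so separated. The order of the upper genes differed by group, with Chrna3 (3.75), Chrm2 (3.70) and Chrm1 (2.36) after Chrnb4 (5.23) in control colons and Chrm1 (2.84), Chrna3 (2.69) and Chrm2 (2.27) after Chrnb4 (6.21) in GWI colons. Chrnb4 exceeded Chrna3 in 14 of 17 mice and Chrm1 exceeded Chrnb1 in 14 of 17.

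**Figure D3:**
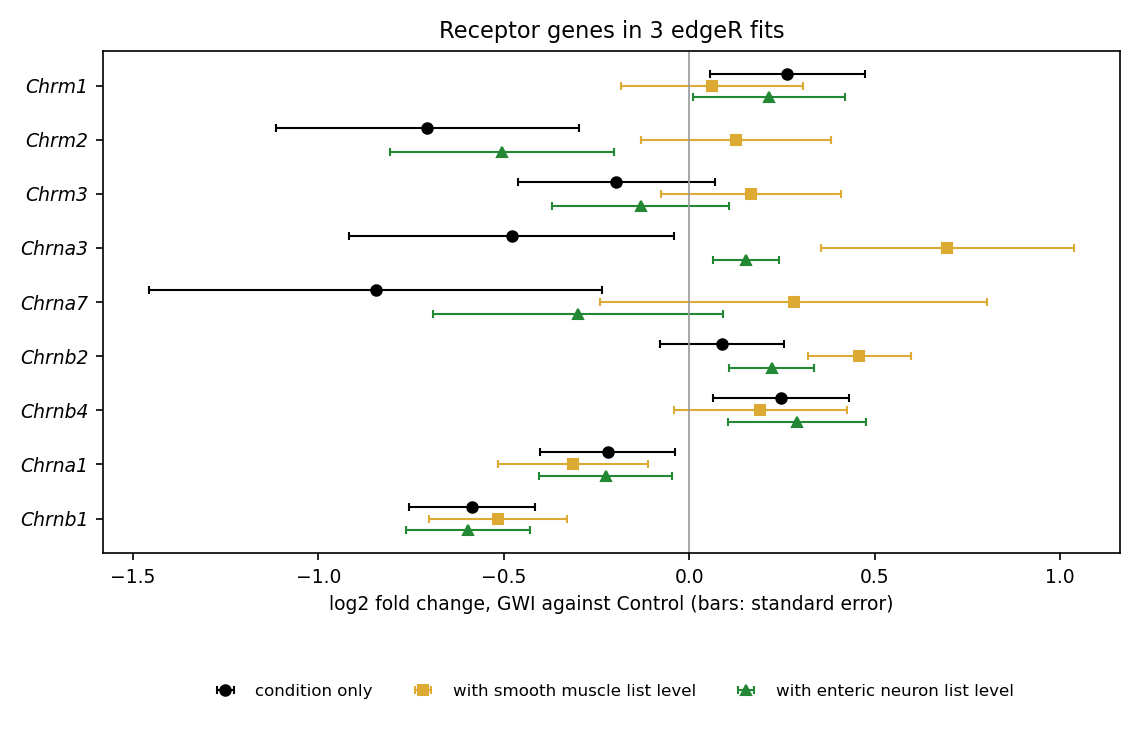
Log2 fold change of GWI against control (horizontal axis, bars are standard errors) of the 9 tested receptor genes in 3 edgeR fits with 17 mice: condition only, with the smooth muscle list level, and with the enteric neuron list level as a covariate. Chrnb1 and Chrna1 are below 0 in all 3 fits, and Chrm1, Chrnb2 and Chrnb4 are above 0 in all 3. Chrnb1 is called in each fit and Chrna1 in none. Chrm2, Chrm3, Chrna3 and Chrna7 change sign with the muscle level, and Chrna3 also with the neuron level.

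The relations among the receptor genes are described by correlations after the mean of each group was subtracted, over 17 mice that share a tissue and a scaling. Chrna7 followed Chrm2 (r = 0.839) and Chrna3 (r = 0.838), Chrna3 followed Chrnb2 (r = 0.832), Chrna7 and Chrnb2 were less close (r = 0.594), and Chrm2 followed Chrm3 (r = 0.729). Chrm1 followed Chrnb4 (r = 0.761), and both ran against Chrnb1, with r of -0.647 and -0.727. Chrna3 and Chrnb4, neighbours in the genome, had r = 0.152, with 0.509 within control and -0.487 within GWI colons, a difference that was not tested.

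The tested genes most like each receptor by the same measure were Kif5a (r = 0.991), Ndrg4 and Nsg1 for Chrna3, and Samd4 (r = 0.969), Enah and Grem1 for Chrm2. For Chrm1 they were Qsox1 (r = 0.956), Shf and Cpox, and for Chrnb4 Abcc8 (r = 0.905), Bcat2 and Dap. Chrm3 was most like Glul (r = 0.904), Kcns3 and Inf2, and Chrna7 most like Fam163a (r = 0.930), Dlg2 and Mtus2, where Dlg2 has more than 1 row in the table. Chrnb2 was most like Cdk11b (r = 0.940). Chrnb1 and Chrna1 had less close matches, led by Ager (r = 0.860) with Krt12 and Rgs1, and by Tmem129 (r = 0.821) with Proc and Mapkapk3.

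Promoter sequence from RefSeq (GRCm38.p6) was found for 9 of the 10 genes, and the 250 bases before the RefSeq start are shown for the gene that differed, Chrnb1, and for the subunit genes Chrna3 and Chrnb2, whose levels moved together. RefSeq and GENCODE do not place every start at the same base, and the Chrnb1 window reaches a few bases into the GENCODE gene. Capitals mark the E box, CANNTG, a motif bound by basic helix-loop-helix factors that reads the same on both strands. It occurs in 66.2% of the 32851 promoters of the table in this window and in 7 of the 9. A second motif, the GC box GGGCGG on either strand, occurs in 32.7% of all promoters and 4 of the 9.
Chrnb1, chr11:69795938-69796187, minus strand: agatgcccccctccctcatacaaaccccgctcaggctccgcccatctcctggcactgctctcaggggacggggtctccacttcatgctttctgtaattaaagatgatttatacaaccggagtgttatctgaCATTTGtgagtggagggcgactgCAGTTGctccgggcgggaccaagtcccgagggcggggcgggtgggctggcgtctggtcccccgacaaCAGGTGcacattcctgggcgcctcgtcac
Chrna3, chr9:55026563-55026812, minus strand: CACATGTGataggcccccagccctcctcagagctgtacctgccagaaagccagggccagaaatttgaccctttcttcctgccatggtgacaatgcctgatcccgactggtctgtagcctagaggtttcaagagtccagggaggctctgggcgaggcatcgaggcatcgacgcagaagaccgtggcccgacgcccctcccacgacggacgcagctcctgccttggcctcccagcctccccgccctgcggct
Chrnb2, chr3:89764633-89764882, minus strand: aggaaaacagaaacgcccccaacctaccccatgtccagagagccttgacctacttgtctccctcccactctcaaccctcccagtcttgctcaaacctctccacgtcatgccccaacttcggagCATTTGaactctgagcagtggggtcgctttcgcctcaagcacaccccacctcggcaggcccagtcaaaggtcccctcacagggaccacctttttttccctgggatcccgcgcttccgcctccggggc

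The E box count was 3 in Chrnb1, 2 in Chrna3 and 1 in Chrnb2, and the pair in Chrna3 overlaps. The GC box count was 4 in Chrnb1, 1 in Chrna3 and 0 in Chrnb2, and a pair of those in Chrnb1 shares a base. A match describes letters in this window and not a bound site.

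The other genes of the pathway were taken from lists by their role in receptor signalling, receptor assembly and acetylcholine handling. In the Gq and calcium list, the route of M1 and M3, 4 of 16 genes were higher and 4 lower, and the list's median was -0.20 on the log2 scale. The inositol trisphosphate receptor genes Itpr2 (0.96, standard error 0.12, adjusted p = 0.000196, edgeR) and Itpr3 (0.84) and the protein kinase C gene Prkca (0.43) rose. For Itpr2, all 8 GWI colons lay above all controls, at 56.2 ± 6.92 CPM (SD, n = 8) against 28.8 ± 5.91 CPM (SD, n = 9). The phospholipase genes Plcb4 (-0.59) and Plcb1 (-0.70) and Cacna1c (-1.05), the L-type calcium channel of muscle, fell.

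In the Gi and cyclic AMP list, the route of M2 and M4, 1 of 11 genes was called, the adenylyl cyclase gene Adcy6 (0.57, higher), with a median of -0.41 over the list.

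Among 8 genes of receptor desensitisation, the arrestin gene Arrb1 (0.42) and the receptor kinase gene Grk6 (0.26) rose, and Rgs2 (-0.90, standard error 0.15, adjusted p = 0.00104, edgeR), an inhibitor of Gq signalling, and Arrb2 (-0.49) fell, with a median of -0.039. Of 14 genes of nicotinic receptor assembly and clustering, 10 were tested with a median of 0.006. Ric3, a chaperone that helps nicotinic subunits such as α7 reach the surface, fell by 0.85 on the log2 scale (standard error 0.21, adjusted p = 0.00782, edgeR), from 9.47 ± 3.08 CPM (SD, n = 9) in control to 5.25 ± 1.46 CPM (SD, n = 8) in GWI colons. Agrn (0.44) and its receptor gene Lrp4 (0.47), which cluster the muscle receptor at the synapse, rose, and Rapsn, its scaffold, failed the filter with 0 to 9 counts a mouse. Of 7 genes of acetylcholine handling 1 was called, Chat (0.40, higher), with a median of -0.45, and with library size alone as the scaling none passed in edgeR, Chat having an adjusted p of 0.0833 and an unadjusted p of 0.0265.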

How the data were processed

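Libraries were poly(A) selected and read from both ends by a sequencing company. Reads were trimmed with Trimmomatic 0.36, aligned to GRCm38 with STAR 2.5.2b and assigned to genes as unique hits with featureCounts. The authors deposited raw counts, whole numbers with no scaling. The annotation release and strand setting were not stated. Overlapping and antisense genes may therefore share reads.

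All 17 columns were matched to a mouse by the sample labels. Counts were filtered with filterByExpr, scaled by TMM and fitted with glmQLFit (robust) and glmQLFTest in edgeR 4.0.16 (R 4.3.3), with condition as the only term. Adjustment was by Benjamini-Hochberg over 14146 genes, and genes with an adjusted p under 0.05 were called. Intervals at 95% were taken from the standard error, which was derived from the F statistic. Correlations used log2 CPM (prior count 2), with 100000 resamples in Python 3.11.15. Gene positions, overlaps and exonic lengths are from GENCODE M21.

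Alternatives were DESeq2 1.42.0 size factors or Wald test, library size alone, limma-voom with quality weights (limma 3.58.1), no robust estimation, other filters, covariates, the replicate number as a block, the threshold in the methods of the study (unadjusted p under 0.05 with an absolute log2 fold change over 1) and leaving out each mouse. The fit was tested on simulated data. The receptor genes, the pathway lists and the marker lists were chosen with earlier results of these data known. Named genes are the receptor genes, the 3 called genes of each list with the smallest p in each direction, the most abundant marker gene and the 3 closest genes to each receptor gene, and a few genes and lists under this rule are not reported. Prefixes shared by some sample names, each within 1 group, are not explained in the study and were not modelled. Every fit and test therefore took the libraries of a group as independent. Control libraries sharing one (4A, 4B and 4C, or 6A and 6C, which are replicates 3, 4, 5, 7 and 8) were more alike than most, with a chi-square per gene between 2 libraries of 9.41 to 25.3 against 20.7 to 390 for other control pairs. Control replicates 1 and 9 were least like the rest, at 152 to 390 and 105 to 390. In GWI libraries it was 14.6 to 92.9 with a shared prefix and 11.1 to 107 without. The part of the prefixes in the results was not tested.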

Additional observations from a re-analysis of the deposited data

Results flagged for a closer look

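In 5 of 22 groups of values checked, 1 colon stood apart from the rest of its group. The limit used is passed by about 1 in 20 groups of independent, normally distributed values. The 22 groups share the same 17 colons and CPM need not be normally distributed, so 5 of 22 cannot be read against that rate. For Chrm2 the colon that stood apart was GWI replicate 5, at 37.3 CPM with the next GWI colon at 16.2. For Chrm3 it was Control replicate 1, at 13.004 CPM with the next control at 6.62, and GWI replicate 5, at 10.7 CPM with the next GWI colon at 5.67. For Chrna7 the same 2 colons stood apart, Control replicate 1 at 3.35 CPM with the next at 1.45, and GWI replicate 5 at 2.58 CPM with the next at 1.03. Both colons also had the highest summed enteric neuron level of their group, 569 and 377 CPM, and GWI replicate 5 had the highest smooth muscle level of the GWI colons, 11823 CPM. Their part in the differences was not tested beyond the fits without them.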

How the results depend on the processing

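The direction of Chrm1, Chrna1, Chrnb1 and Chrnb4 held in all 28 alternative fits, with changes in size. Chrm1 went from 0.26 to 0.11 without GWI replicate 1 and 0.061 with the muscle level, Chrnb4 from 0.25 to 0.12 without GWI replicate 1 and 0.078 by limma-voom, and Chrna1 from -0.22 to -0.14 without GWI replicate 2. The count of 1 receptor gene called became 4 of 9 with limma-voom (Chrm2, Chrna3, Chrna7 and Chrnb1, where 57.1% of all genes were called), 2 with the smooth muscle level as a covariate (Chrnb1 and Chrnb2, against 37.6% of all), and 1 to 3 when 1 mouse was left out, the 3 (Chrm2, Chrna7 and Chrnb1, against 27.5% of all) without GWI replicate 5. Without both Control replicate 1 and GWI replicate 5, a choice made after seeing the data, it was 2 of the 8 tested (Chrm2 and Chrnb1, against 34.9% of all), and Chrna7 failed the filter. By the threshold of the study's methods it was 0 with edgeR and the DESeq2 Wald test, 1 with limma-voom (Chrna7) and 2 with edgeR without GWI replicate 5 (Chrm2 and Chrna7). An unadjusted p under 0.05 with no limit on the fold was reached by 1 receptor gene in edgeR, 1 in DESeq2 and 4 in limma-voom. In edgeR, 5851 of all 14146 tested genes reached it. For DESeq2 and limma-voom this was not counted over all genes. After adjustment 28.1% of 16313 genes were called with the DESeq2 Wald test and 57.1% of 14146 with limma-voom. At least these shares of the same genes reached an unadjusted p under 0.05. The genes called in all were 8076 with limma-voom and, by the study's threshold, 342 with edgeR, 646 with the DESeq2 Wald test and 1094 with limma-voom. With edgeR without GWI replicate 5, that threshold was passed by 593 of 14208 genes.

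Log2 fold changes changed sign with the muscle level as a covariate for Chrm2 (0.13), Chrm3 (0.17), Chrna3 (0.70) and Chrna7 (0.28), with the neuron level for Chrna3 (0.15), and with limma-voom for Chrnb2 (-0.013). Leaving out 1 mouse moved Chrm3 from -0.43 to 0.042 and the Chrm2 to Chrm3 ratio from -0.61 to -0.33, with p under 0.05 only without Control replicate 7. The cause was not tested. Chrna7 failed the filter in 6 of the 17 fits that left out a mouse and where 10 counts were required in every mouse. Under other settings the list of acetylcholine handling had 0 (library size alone) or 3 calls (muscle covariate), and that of Gi and cyclic AMP 2 (muscle covariate).

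With the replicate number as a block, 0 receptor genes were called by edgeR, against 15.8% of all genes (2241). At an unadjusted p under 0.05 it was 1, a share not counted over all genes. Without the block, 1 was called by DESeq2, against 28.1% of all, and 4 by limma-voom, against 57.1% of all. Chrnb1 was at -0.54 with the block (adjusted p = 0.0689, edgeR) against -0.59 without it. Deviations of same-numbered mice correlated between -0.506 and 0.115, which gave no sign that the numbers pair the mice. It cannot exclude pairing, because a shared effect could be smaller than the spread between colons of a group. Depth limits Chrna7 and the genes that failed the filter.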
